A study of Mus musculus with 43 samples.

Results

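The homeobox and paired-box genes outside the Hox clusters were taken from the gene table by symbol, as every gene of 19 families whose name starts with Lhx, Nkx, Pax, Dlx, Irx, Msx, Meis, Pbx, Pitx, Alx, Emx, Gbx, Gsx, Evx, Lmx, Phox, Vax or Vsx followed by a digit or belongs to the sine oculis-related family of Six2, Six3 and their relatives, leaving out opposite-strand transcripts. The rule found 81 genes of the 22462 in the table. RNA-seq was made from E14 cells (ES-E14TG2a), a mouse embryonic stem cell line grown in serum-containing medium with LIF, the cytokine that keeps such cells undifferentiated, on gelatin. The 2 groups were MTF2 KO cells, in which Mtf2 was knocked out, and Control cells of the same line, with 3 libraries each, and the design text calls the replicates biological. The sources used here do not say how the knockout was made or whether it is a single clone. The authors' deposited table holds 1 pooled FPKM (fragments scaled to transcript length and library size) per gene and group, so each level below is the authors' pooled value, and no SD, n or depth per library can be given.

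Homeobox genes encode transcription factors with a DNA-binding homeodomain, and Pax factors are defined by a paired domain. They set position and cell identity in the embryo, and each family serves a small number of tissues. In embryonic stem cells many of them are kept silent at CpG-rich promoters that carry H3K27me3, the mark written by Polycomb repressive complex 2 (PRC2). MTF2 is a Polycomb-like subunit of PRC2 with a winged-helix domain that binds unmethylated DNA containing CpG. The ChIP-seq samples of the series were not analysed here, so binding and H3K27me3 at these genes are not described.

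Promoters of members that passed the authors' test, below called members, are shown because CpG is the dinucleotide that MTF2 is known to bind. A promoter was in the RefSeq table used here (GRCm38.p6) for 56 of the 81 genes and for 4 of the 8 called ones, Nkx6-2, Irx2, Meis1 and Pbx2. Each sequence is the 250 bases before the RefSeq start, 5′ to 3′ on the gene's strand, and capitals mark CG, which reads the same on both strands.
Nkx6-2: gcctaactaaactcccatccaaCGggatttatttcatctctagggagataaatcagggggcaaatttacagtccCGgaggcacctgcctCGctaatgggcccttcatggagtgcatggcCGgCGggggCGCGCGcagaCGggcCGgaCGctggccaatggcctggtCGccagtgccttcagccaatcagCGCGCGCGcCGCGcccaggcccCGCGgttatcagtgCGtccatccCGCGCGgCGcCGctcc
Irx2: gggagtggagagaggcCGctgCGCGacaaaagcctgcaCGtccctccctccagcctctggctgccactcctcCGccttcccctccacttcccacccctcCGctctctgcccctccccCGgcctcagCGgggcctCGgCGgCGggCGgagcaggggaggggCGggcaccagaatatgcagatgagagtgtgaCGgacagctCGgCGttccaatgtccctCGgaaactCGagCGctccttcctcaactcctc
Meis1: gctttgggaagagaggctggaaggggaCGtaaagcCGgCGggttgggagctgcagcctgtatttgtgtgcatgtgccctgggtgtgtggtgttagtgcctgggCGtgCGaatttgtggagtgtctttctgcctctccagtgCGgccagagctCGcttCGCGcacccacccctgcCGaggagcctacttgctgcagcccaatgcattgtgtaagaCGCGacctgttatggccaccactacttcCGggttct
Pbx2: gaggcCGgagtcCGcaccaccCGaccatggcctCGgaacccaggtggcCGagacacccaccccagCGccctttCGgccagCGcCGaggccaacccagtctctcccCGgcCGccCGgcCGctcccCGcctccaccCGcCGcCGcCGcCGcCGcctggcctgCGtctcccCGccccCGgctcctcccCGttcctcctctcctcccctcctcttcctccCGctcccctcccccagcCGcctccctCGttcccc
The Nkx6-2 window (chr7:139582798-139583047, minus strand) held 26 CG, and 9.59% of all 32851 windows in the RefSeq table held as many or more. The Irx2 window (chr13:72628570-72628819, plus strand) held 19, a count reached by 19.7% of windows, and the Meis1 window (chr11:19018970-19019219, minus strand) held 13, reached by 31.5%. The window of Pbx2 (chr17:34592009-34592258, plus strand), the only one of these 4 genes that was lower in the knockout, held 27, reached by 8.56%. The median over all windows was 6 CG, and 92.1% of them held at least 1. These ranks describe 4 single windows. With 69.1% of the members matched, under the 80% needed, a comparison of CpG content between the members as a group and other genes was void and was not made.

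As a check of the labels, Mtf2 stood at 44.7 FPKM in MTF2 KO cells and at 74.3 FPKM in Control cells, and the authors' deposited table gives it a q of 0.0496. Its transcripts were thus at 60.2% of the Control level, and the table does not say which exons they held. Of the 8 embryonic stem cell markers, all were above 1 FPKM in both groups, with summed levels of 5085 FPKM in MTF2 KO cells and 5184 FPKM in Control cells, and 1 was called, Tfcp2l1, higher at 60.8 FPKM in MTF2 KO cells and 34.01 FPKM in Control cells (q = 0.0012 in the authors' deposited table). Of the 12 primitive endoderm markers, 10 were called higher, and their summed level was 1425 FPKM in MTF2 KO cells and 231 FPKM in Control cells, with none listed at 0. Of the 8 trophectoderm markers, Krt18 and Krt8 were called higher and Tfap2c was called lower, at 7.41 FPKM in MTF2 KO cells and 16.9 FPKM in Control cells, and Elf5 was listed at 0 in MTF2 KO cells. Their sum was 185 FPKM in MTF2 KO cells and 41.6 FPKM in Control cells, but without the 2 keratins it was 14.8 FPKM in MTF2 KO cells and 26.0 FPKM in Control cells. The 10 neural progenitor markers, of which Pax6 is itself a member, summed to 121 FPKM in MTF2 KO cells and 154 FPKM in Control cells, with 0 of 4 tested called by Cuffdiff (1 at an unadjusted p under 0.05) and Neurog1, Neurog2 and Olig2 at 0 in both groups. Tubb3, whose locus entry spans 4.44 Mb and is shared by 74 genes, carried that sum, and without it the sums were 10.99 FPKM in MTF2 KO cells and 9.30 FPKM in Control cells. The 8 mesoderm markers summed to 9.74 FPKM in MTF2 KO cells and 12.8 FPKM in Control cells, with 0 of 4 tested called (0 at an unadjusted p under 0.05) and Mesp1 and Msgn1 at 0 in both. The 8 fibroblast markers summed to 34.6 FPKM in MTF2 KO cells and 46.4 FPKM in Control cells, with Col3a1 and Postn at 0 in both. Fbln1 was called lower, at 18.5 FPKM in MTF2 KO cells and 38.9 FPKM in Control cells, and the other 7 summed to 16.1 FPKM in MTF2 KO cells and 7.52 FPKM in Control cells. The part of such cells in the results below was not tested. In bulk RNA, more cells of a type and more RNA per cell cannot be told apart.

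Of the 81 genes, 7 rose and 1 fell in the knockout, while 46 stayed under 1 FPKM in both groups. Nkx6-2, Nkx6-3, Irx2, Pbx3, Meis1 and Pitx1 were among those called higher, and Pbx2 was called lower, in the authors' deposited table, where a call is a Cuffdiff q (the adjusted p of the authors' tool) at or under 0.05. These 8 genes come from 25 members that the authors tested; the other 56 had the status NOTEST, which Cuffdiff gives to genes with too few fragments. Of all 11362 tested genes in the table, 12.9% were called, 6.9% as higher and 6.03% as lower. Among the tested members 28% were called higher, but this share cannot be read as it stands. No tested gene was under 1 FPKM in both groups, so members that low in Control cells entered the test only where they were higher in MTF2 KO cells.

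Split by the Control level, the members can be set beside genes that passed the same filter. Of 16 tested members at 1 FPKM or more in Control cells, 4 were called higher (25%) and 1 lower, against 699 of 10761 genes of that kind in the whole table called higher (6.5%). Of 9 tested members under 1 FPKM in Control cells, 3 were called higher (33.3%), against 85 of 601 such genes in the whole table (14.1%). All of these genes had to be higher in MTF2 KO cells to be tested, so nothing is read from these last shares. Stricter or different call rules gave these counts, beside the share of all genes. At a q of 0.01, 5 members were higher (3.86% of all tested genes) and 0 lower (2.96%). With a 2-fold minimum, 7 were higher (4.67%) and 0 lower (2.8%). Among genes at 5 FPKM or more in either group, 6 were higher (8.07%) and 1 lower (7.45%). Without genes listed at 0 in a group, 7 were higher (6.67%) and 1 lower (5.84%), and without genes on a shared locus entry, 7 were higher (7.81%) and 0 lower (6.74%). When p was taken from the test statistic under a normal distribution, 2 were higher (0.845%) and 0 lower (0.258%).

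These counts are small and describe the authors' calls; no test of the list was made. The median log2 ratio, taken on FPKM + 0.5 as MTF2 KO over Control, was 0.82 over the 25 tested members, but the same filter bears on it, and nothing is read from it. Over the 16 tested members at 1 FPKM or more in Control cells it was -0.024, against -0.042 over all such genes, and 8 of the 16 were higher and 8 lower in value. Over the other 9, all of which had to be higher in MTF2 KO cells to be tested, it was 2.04, against 1.41 over all such genes.

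**Figure D1:**
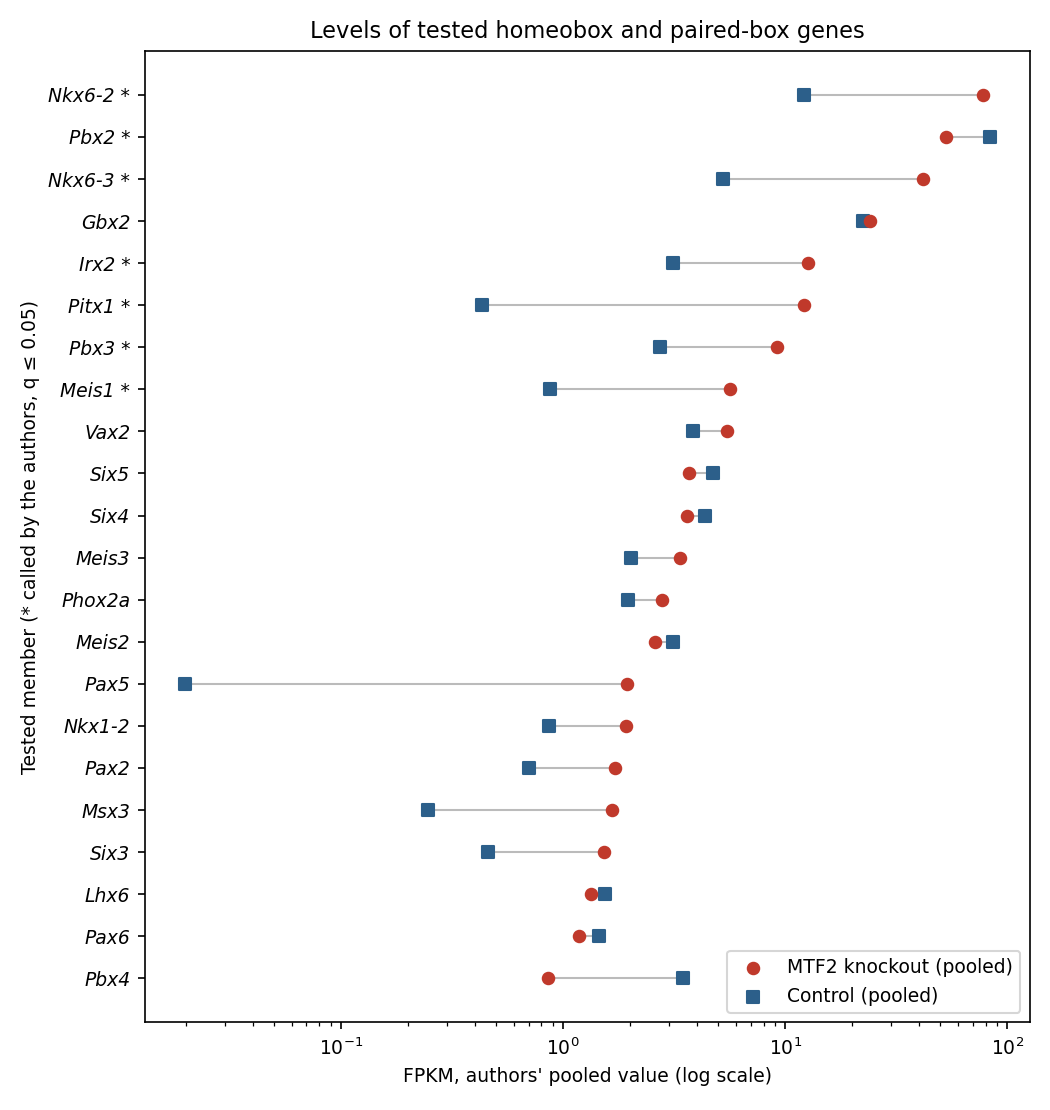
Pooled FPKM (log scale) of the tested members named here, in MTF2 KO cells (circles) and Control cells (squares), joined by a line and ordered by the level in MTF2 KO cells, with an asterisk on called genes. Nkx6-2 is at 77.8 FPKM in MTF2 KO cells and 12.1 FPKM in Control cells, while Gbx2, at 24.2 FPKM in MTF2 KO cells and 22.3 FPKM in Control cells, hardly separates.

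The NK-like genes held the largest gains in level. Nkx6-2, a factor of the ventral neural tube and of oligodendrocytes, stood at 77.8 FPKM in MTF2 KO cells and 12.1 FPKM in Control cells. It was 6.43-fold higher, with a log2 ratio of 2.64 (q = 0.0012 in the authors' deposited table), and it was the highest of all members in MTF2 KO cells. Nkx6-3, known in mouse for endocrine cells of the stomach, stood at 41.8 FPKM in MTF2 KO cells and 5.24 FPKM in Control cells. Its log2 ratio was 2.88 and its q 0.0012 in the authors' deposited table. The third paralogue, Nkx6-1, a factor of pancreatic beta cells and motor neurons, was not tested, at 1.13 FPKM in MTF2 KO cells and 0.268 FPKM in Control cells. All 3 Nkx6 genes were therefore higher in MTF2 KO cells in value, and 2 of them passed the authors' test.

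The q of 0.0012 is the smallest that the table holds, shared by 472 genes. Nkx6-2 and Nkx6-3 were also the only members called when p was taken from the test statistic in that way and adjusted by Benjamini-Hochberg, with q values of 0.000848 and 0.000176. The other 6 called members missed the threshold there, with q from 0.064 for Pitx1 to 0.779 for Pbx2.

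The other 11 Nkx genes were low. Nkx1-2, expressed in the posterior neural plate, was the only other tested one, at 1.92 FPKM in MTF2 KO cells and 0.867 FPKM in Control cells (q = 0.763 in the authors' deposited table), and its locus entry is a merged span with 31 genes. The 7 Nkx2 genes, which include the heart factor Nkx2-5 and the thyroid and lung factor Nkx2-1, were all untested. The highest of them was Nkx2-4 in MTF2 KO cells, at 1.07 FPKM against 0.306 FPKM in Control cells, and Nkx2-9 in Control cells, at 0.558 FPKM in MTF2 KO cells against 1.18 FPKM in Control cells. Nkx3-2, a factor of cartilage, was listed at 0 in both groups.

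Of the remaining NK-like families, Vax2 and Msx3 were tested and not called. Vax2, which patterns the ventral retina, was at 5.46 FPKM in MTF2 KO cells and 3.83 FPKM in Control cells (q = 0.603 in the authors' deposited table). Msx3, expressed in the dorsal neural tube of mouse, was at 1.66 FPKM in MTF2 KO cells and 0.248 FPKM in Control cells (q = 0.507 in the authors' deposited table). The 6 Dlx genes, regulators of forebrain interneurons and of the jaw, were all untested and reached at most 0.418 FPKM in MTF2 KO cells and 1.52 FPKM in Control cells, both values being Dlx6. Emx2, a cortical factor, was untested at 1.09 FPKM in MTF2 KO cells and 0.409 FPKM in Control cells.

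Pitx1 had the largest log2 ratio of the called members. Pitx1, which specifies the hindlimb and acts in the pituitary, stood at 12.1 FPKM in MTF2 KO cells and 0.430 FPKM in Control cells, a log2 ratio of 3.76 (Cuffdiff q = 0.00776 in the authors' deposited table). Pitx3, a factor of dopaminergic neurons and the lens, was listed at 0 in both groups.

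None of the 9 Pax genes was called by Cuffdiff, and of the 3 tested 0 had an unadjusted p under 0.05. Pax5, a B-cell and midbrain factor, was at 1.93 FPKM in MTF2 KO cells and 0.0199 FPKM in Control cells, a log2 ratio of 2.23 (q = 0.476 in the authors' deposited table). Pax2, a kidney and midbrain factor, was at 1.71 FPKM in MTF2 KO cells and 0.703 FPKM in Control cells (q = 0.302 in the authors' deposited table). The eye and forebrain factor Pax6 was at 1.18 FPKM in MTF2 KO cells and 1.46 FPKM in Control cells (q = 0.87 in the authors' deposited table). The other 6 were untested, with Pax1, Pax4 and Pax8 listed at 0 in both groups and Pax3, Pax7 and Pax9 at no more than 0.393 FPKM in MTF2 KO cells. Among the other paired-class genes, Phox2a, a factor of noradrenergic neurons, was tested, at 2.80 FPKM in MTF2 KO cells and 1.97 FPKM in Control cells (q = 0.921 in the authors' deposited table). It shares its locus entry with Inppl1. The 3 Alx and both Vsx genes stayed under 0.4 FPKM in each group.

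**Figure D2:**
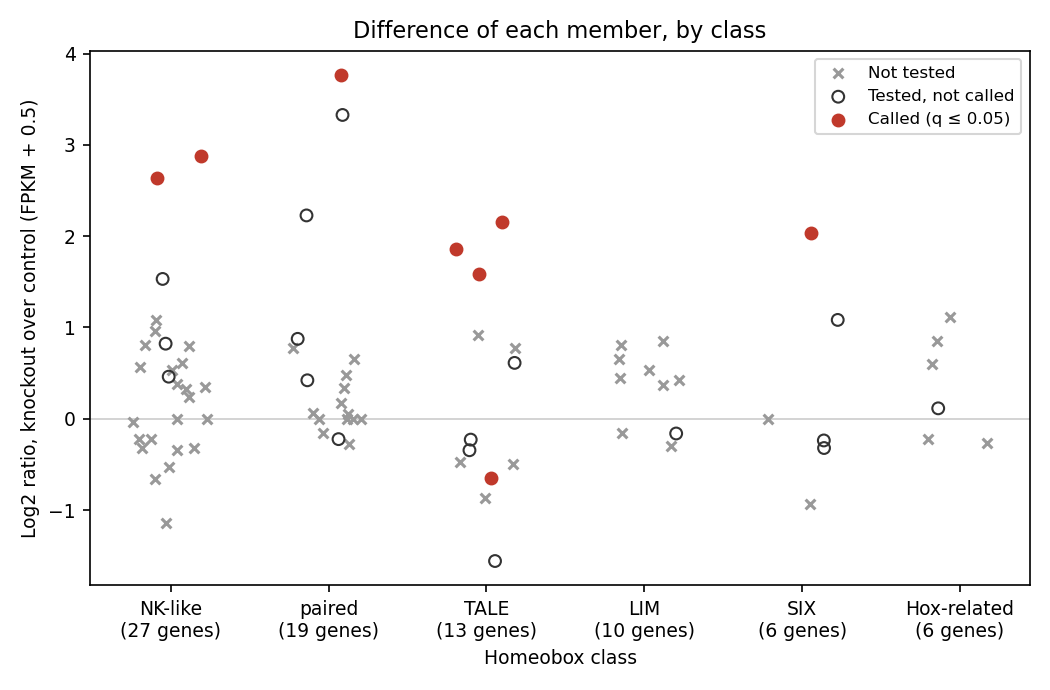
Log2 ratio (MTF2 KO over Control, FPKM + 0.5) of each of the 81 members, by homeobox class, with horizontal scatter added for legibility; filled points are called, open points tested and not called, crosses not tested. Pitx1 at 3.76 is the top point of the paired class, and Pbx4 at -1.56 is the lowest point of the TALE class.

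TALE genes, whose homeodomain has an extra loop and whose PBX and MEIS proteins bind DNA together and with Hox proteins, moved both ways, with 3 called higher and 1 lower. They were also the class with the most tested members, 8 of 13. The 4 Pbx genes were all tested. Pbx2 was the highest member in Control cells, and it fell to 52.9 FPKM in MTF2 KO cells, against 83.2 FPKM in Control cells, with a log2 ratio of -0.65 (q = 0.0488 in the authors' deposited table). Pbx3 rose to 9.22 FPKM in MTF2 KO cells, against 2.74 FPKM in Control cells, with a log2 ratio of 1.58 (q = 0.00454 in the authors' deposited table). Pbx4, which is expressed in the testis, was not called, at 0.852 FPKM in MTF2 KO cells and 3.48 FPKM in Control cells, a log2 ratio of -1.56 (q = 0.178 in the authors' deposited table).

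The Pbx2 call was the weakest of the 8. It was lost at a q of 0.01, at a 2-fold minimum and without genes that share a locus entry. Its entry is shared with Gpsm3, which was at 17.0 FPKM in MTF2 KO cells and 13.1 FPKM in Control cells (q = 0.817 in the authors' deposited table). The summed Pbx level was 77.8 FPKM in MTF2 KO cells and 108 FPKM in Control cells.

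Of the 3 Meis genes, Meis1, a partner of PBX proteins in blood stem cells and limbs, rose to 5.65 FPKM in MTF2 KO cells, against 0.878 FPKM in Control cells. Its log2 ratio was 2.16 and its q 0.018 in the authors' deposited table. Meis2 was at 2.59 FPKM in MTF2 KO cells and 3.12 FPKM in Control cells (q = 0.773 in the authors' deposited table), and Meis3 at 3.35 FPKM in MTF2 KO cells and 2.02 FPKM in Control cells (q = 0.475 in the authors' deposited table). In Control cells Meis1 was thus the lowest of the 3, and in MTF2 KO cells the highest.

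The Irx genes lie in 2 clusters, and the values of the clusters differed in sign. Irx2, an Iroquois-family patterning factor, was the only tested one and rose to 12.7 FPKM in MTF2 KO cells, against 3.12 FPKM in Control cells, with a log2 ratio of 1.86 (q = 0.0012 in the authors' deposited table). Its partners on chromosome 13, Irx1 671 kb and Irx4 632 kb away, were untested. Irx1 was at 0.662 FPKM in MTF2 KO cells and 0.178 FPKM in Control cells, and Irx4 at 0.441 FPKM in MTF2 KO cells and listed at 0 in Control cells. On chromosome 8, Irx3 was at 0.733 FPKM in MTF2 KO cells and 1.24 FPKM in Control cells. Irx5 was at 0.127 FPKM in MTF2 KO cells and 0.640 FPKM in Control cells, and Irx6 at 0.120 FPKM in MTF2 KO cells and 0.360 FPKM in Control cells. All 3 genes of the chromosome 13 cluster were higher and all 3 of the chromosome 8 cluster lower in MTF2 KO cells in value, with 1 of the 6 tested, and the difference between the clusters was not tested.

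The sine oculis-related genes encode factors that act with EYA cofactors. Six4 was tested and not called, at 3.61 FPKM in MTF2 KO cells and 4.35 FPKM in Control cells (q = 0.639 in the authors' deposited table). Six6, an eye and pituitary factor, was listed at 0 in both groups. Six5 was at 3.68 FPKM in MTF2 KO cells and 4.72 FPKM in Control cells (q = 0.608 in the authors' deposited table). The forebrain and eye factor Six3 was at 1.53 FPKM in MTF2 KO cells and 0.460 FPKM in Control cells (q = 0.537 in the authors' deposited table), while its untested neighbour Six2, a kidney progenitor factor, was at 0.249 FPKM in MTF2 KO cells and 0.935 FPKM in Control cells.

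LIM genes were low, and 0 were called by Cuffdiff. Lhx6, a factor of cortical interneurons, was the only one tested of 10, at 1.34 FPKM in MTF2 KO cells and 1.55 FPKM in Control cells (q = 0.916, p = 0.825 in the authors' deposited table). Lhx2, a forebrain and eye factor, was the only other one to reach 1 FPKM, at 1.03 FPKM in MTF2 KO cells and 0.622 FPKM in Control cells. In value, 7 of the 10 were higher and 3 lower in MTF2 KO cells. Of the Gbx, Gsx and Evx genes, which are related to Hox genes in sequence, only Gbx2 was tested. Gbx2, a midbrain-hindbrain boundary factor that LIF signalling also induces in mouse embryonic stem cells, was at 24.2 FPKM in MTF2 KO cells and 22.3 FPKM in Control cells (q = 0.835 in the authors' deposited table). Gsx2 and Gbx1 were untested, Gsx2 at 1.40 FPKM in MTF2 KO cells against 0.755 FPKM in Control cells and Gbx1 at 1.13 FPKM in MTF2 KO cells against 0.398 FPKM in Control cells. Evx1, a primitive streak gene, was untested at 0.867 FPKM in MTF2 KO cells and 0.130 FPKM in Control cells.

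**Figure D3:**
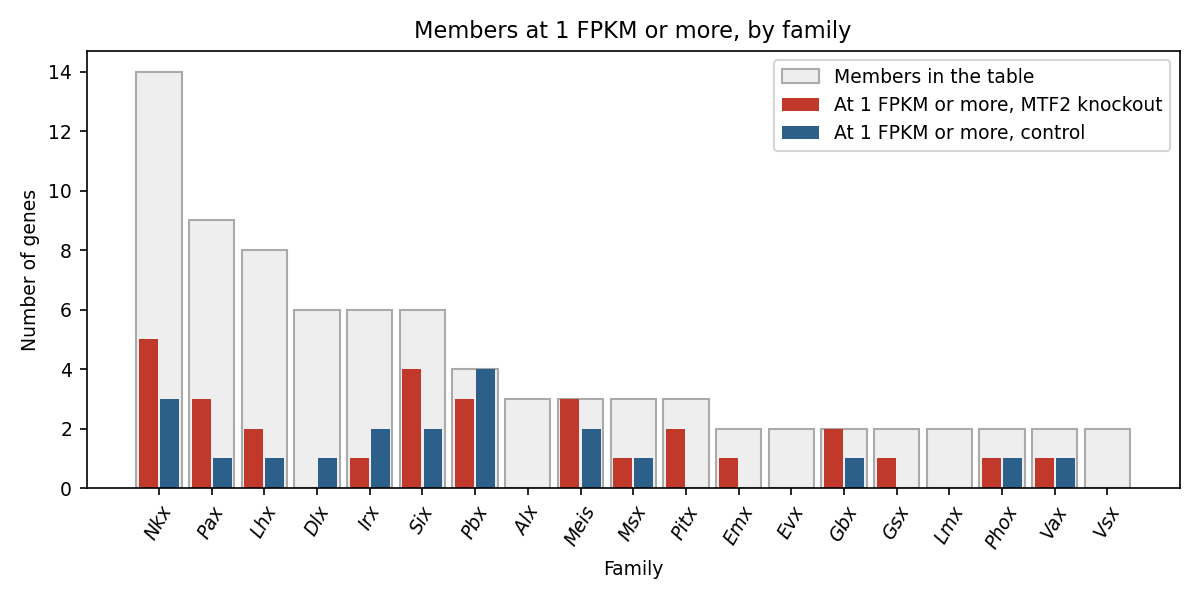
Number of members of each family in the table (grey) and number at 1 FPKM or more in MTF2 KO cells (red, left) and in Control cells (blue, right). In all, 30 members reached that level in MTF2 KO cells and 20 in Control cells, and no Alx, Evx, Lmx or Vsx gene reached it in either.

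Across the 81 genes, 30 were at 1 FPKM or more in MTF2 KO cells and 20 in Control cells, with 15 in both groups, 15 in MTF2 KO cells only, 5 in Control cells only and 46 in neither. In either group, 35 of the 81 members and 11997 of the 22462 genes of the whole table were at that level. Of those 11997 genes, 946 reached it in MTF2 KO cells only and 517 in Control cells only. The 5 members at 1 FPKM or more in Control cells only were Pbx4, Dlx6, Irx3, Msx2 and Nkx2-9. The summed level of the members was 321 FPKM in MTF2 KO cells and 195 FPKM in Control cells. A small number of genes carried it. Nkx6-2, Pbx2 and Nkx6-3 made up 53.7% of the sum in MTF2 KO cells. Nkx6-2 alone made up 24.2% in MTF2 KO cells, and Pbx2 alone 42.7% in Control cells.

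Of the 56 members that the authors did not test, 30 were higher, 20 lower and 6 listed at 0 in both groups. Of those that differed, 60% were higher in MTF2 KO cells, against 62% over all untested genes. The median level of the untested members was 0.280 FPKM in MTF2 KO cells and 0.164 FPKM in Control cells. The highest values were 1.40 FPKM for Gsx2 in MTF2 KO cells and 1.52 FPKM for Dlx6 in Control cells. Within the range of 0.05 to 1 FPKM in Control cells, 21 of 37 untested members were higher in MTF2 KO cells (56.8%), against 46.8% of 2984 untested genes of that range. The median log2 ratio in that range was 0.35 over the members and -0.05 over all such genes, and the difference was not tested. The range was not planned in advance and its values lie near the floor, so nothing is read from it.

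Ratios differ along some chromosomes in these data, so each member was set beside the median log2 ratio of the 50 nearest genes at 1 FPKM or more. Of the 8 called members, 7 had neighbours with a median between -0.20 and 0.02. Nkx6-3 (chromosome 8, 23153269 to 23158948, mm10) was the exception, with a neighbour median of 1.00. Its own log2 ratio less that of its neighbours was 1.88. The nearest tested genes on either side of it, Kat6a and Gpat4, were both called higher, with log2 ratios of 1.23 and 1.44 (Cuffdiff q = 0.0012 each in the authors' deposited table). Pbx4, also on chromosome 8, had the lowest neighbour median of the tested members, -0.30, beside its own ratio of -1.56.

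Nkx2-6, a heart factor on chromosome 14, was untested, at 0.128 FPKM in MTF2 KO cells and listed at 0 in Control cells, while its neighbours had a median log2 ratio of 1.32. Of the 16 tested genes that flank the 8 called members, 5 were called higher and 3 lower. That is 50%, beside 12.9% of all tested genes (6.9% higher and 6.03% lower), and their median log2 ratio was -0.19. Of the higher calls, Ager, Kndc1 (0.356 FPKM) and Mvb12b (0.978 FPKM) were under 1 FPKM in Control cells. These genes could be tested only by being higher in MTF2 KO cells. The other higher calls, Kat6a and Gpat4, flank Nkx6-3, whose neighbour median was high. Six4, among the 16, is itself a member. Nothing is therefore read from the 50%. The starts of the flanking genes lay from 8.06 to 2040 kb from that of the member, and no common control of these genes was tested. Ager, called higher beside Pbx2, was at 1.75 FPKM in MTF2 KO cells and listed at 0 in Control cells. The flanking genes of Pitx1 were not called.

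**Figure D4:**
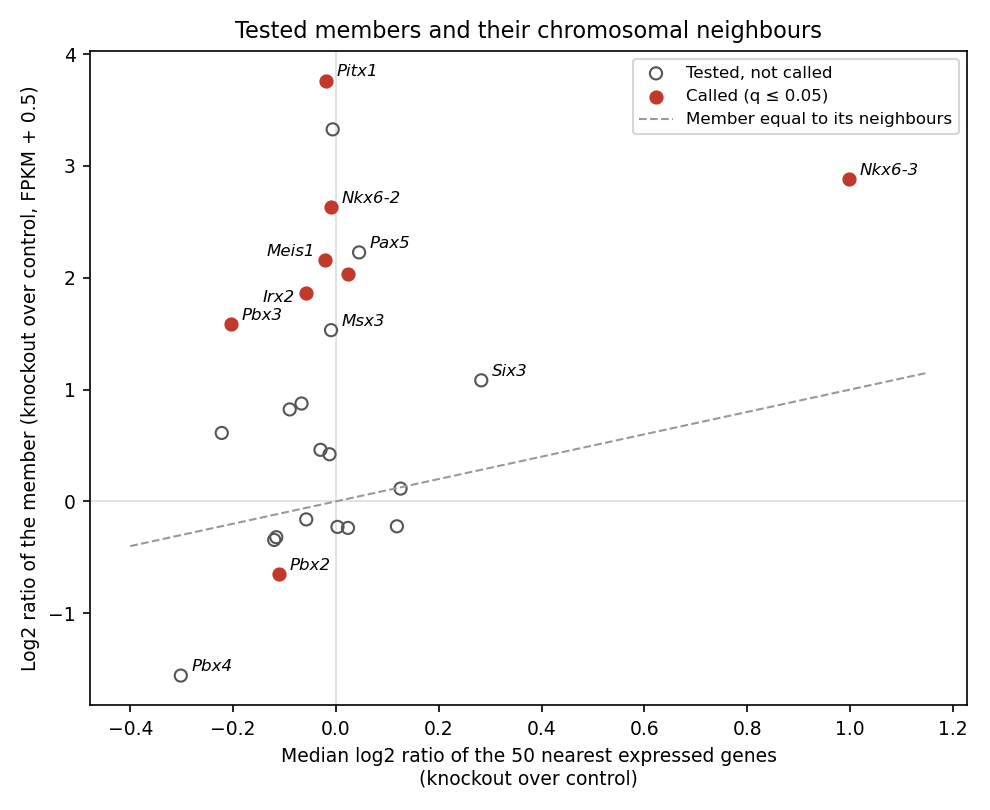
Log2 ratio (MTF2 KO over Control, FPKM + 0.5) of each tested member against the median of the 50 nearest expressed genes on its chromosome; filled points are called, and the dashed line marks a member equal to its neighbours. Nkx6-3 is alone at the right, with neighbours at 1.00, while the other called members lie between -0.20 and 0.02.

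Homeobox genes of other families, 92 of 95 listed names in the table, were mostly not called. Of 44 tested, 4 were called higher and 2 lower, which is 13.6% of them beside 12.9% of all tested genes, with a median log2 ratio of 0.07. Pou4f2, a retinal ganglion cell factor, was at 6.56 FPKM in MTF2 KO cells and 1.60 FPKM in Control cells (q = 0.00835 in the authors' deposited table). Cers4, a ceramide synthase gene with a homeobox-like domain, was at 1.62 FPKM in MTF2 KO cells and 0.338 FPKM in Control cells (q = 0.00835 in the authors' deposited table). Isl2, a motor neuron factor, was at 1.41 FPKM in MTF2 KO cells and listed at 0 in Control cells. The caudal-type gene Cdx1 was lower, at 7.08 FPKM in MTF2 KO cells and 21.3 FPKM in Control cells, as was Zeb1, at 4.12 FPKM in MTF2 KO cells and 9.06 FPKM in Control cells. The highest homeobox genes of the stem cell itself were not called: Pou5f1 was at 1212 FPKM in MTF2 KO cells and 1312 FPKM in Control cells, Tgif1 at 92.4 FPKM in MTF2 KO cells and 113 FPKM in Control cells, and Nanog at 90.0 FPKM in MTF2 KO cells and 105 FPKM in Control cells.

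Genes of proteins that work with the members were called lower in 4 cases and higher in 1 of 29 tested. That is 17.2% of them, beside 12.9% of all tested genes, and the lower calls are 13.8%, beside 6.03% of all, with a median log2 ratio of -0.21. Of the Groucho corepressors, which many NK and paired factors recruit, Tle1 fell to 8.04 FPKM in MTF2 KO cells, against 23.1 FPKM in Control cells (q = 0.0012 in the authors' deposited table). Tle4 fell to 15.0 FPKM in MTF2 KO cells, against 26.0 FPKM in Control cells (q = 0.00776 in the authors' deposited table). The short Groucho-related gene Aes fell to 727 FPKM in MTF2 KO cells, against 1235 FPKM in Control cells (q = 0.0101 in the authors' deposited table), while Tle3 was at 105 FPKM in MTF2 KO cells and 102 FPKM in Control cells and was not called. Of the LIM cofactors, Ssbp4 was lower, at 165 FPKM in MTF2 KO cells and 341 FPKM in Control cells (q = 0.0012 in the authors' deposited table). Rlim, the ubiquitin ligase of LIM cofactors, was higher, at 10.95 FPKM in MTF2 KO cells and 6.56 FPKM in Control cells (q = 0.0325 in the authors' deposited table). Ldb1, the core LIM-binding protein, was at 394 FPKM in MTF2 KO cells and 501 FPKM in Control cells and was not called. Eya1, a cofactor of sine oculis-related factors, was at 4.01 FPKM in MTF2 KO cells and 3.88 FPKM in Control cells and was not called. Pagr1a, of the Pax-interacting PAXIP1 complex, was not called either, at 90.9 FPKM in MTF2 KO cells and 216 FPKM in Control cells. Of the 13 PRC2 genes, 3 were called lower and 0 higher. With the knocked-out Mtf2 set aside, 2 of 12 were called lower (16.7%), beside 6.03% of all tested genes. The others called were Phf19, at 149 FPKM in MTF2 KO cells and 457 FPKM in Control cells, and Aebp2, at 33.6 FPKM in MTF2 KO cells and 81.3 FPKM in Control cells.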

How the data were processed

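The series holds 43 samples, of which 36 are ChIP-seq, 1 is input and 6 are RNA-seq. Only the gene table made from the RNA-seq libraries was used. Cuffdiff 2.2.1.3, TopHat2 2.1.0, Bowtie 1.0 and deepTools stand in the submitters' processing notes, as do mm10 and mm9, without the role of each. The FPKM values were made by the authors and pooled over libraries, per the file headers. Their scaling between libraries and any use of strand are not stated in the labels or headers. The deposited log2 fold change is knockout over control with no pseudocount. The test statistic is a score deposited by the authors, as are the p-value and q-value. The deposited q equals a Benjamini-Hochberg adjustment of p over the 11362 tested genes to within 5.2e-07. An exact 0 can be a failed estimate and is given as listed at 0. Library depth is unknown.

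Calls are the authors' (tested, q at or under 0.05). Ratios are MTF2 KO over Control on log2(FPKM + 0.5), a scale on which changes of low genes come out smaller than they are. Starts were moved from 0-based to 1-based. All 81 members matched RefSeq by symbol on GRCm38.p6 (mm10), and each overlapped its RefSeq position within 2 kb, so coordinates are given as mm10. Promoter sequences are RefSeq's. Python 3.11.15, pandas 2.3.3, numpy 2.4.6, scipy 1.17.1 and matplotlib 3.10.9 were used, and the adjustment and the neighbour median were tested on simulated data. Members and lists were chosen with earlier results of these data known. Tested members are named, except some that are not reported here, with untested members at 1 FPKM or more or of note in a family, the called genes of the other lists, and up to 3 uncalled ones of high Control level. Eya1, Kat6a, Gpat4, Gpsm3, Ager, Kndc1 and Mvb12b were named after their values were seen. The alternatives tried were q, fold and FPKM minimums, a normal p from the test statistic, removal of genes at 0 or with shared entries, other pseudocounts, median centring and subtraction of the neighbour median.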

Additional observations from a re-analysis of the deposited data

How the results depend on the processing

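No paired analysis was possible because the table holds 1 pooled value per group, and no library was left out in turn for the same reason. The 7 higher member calls were 5 at a q of 0.01, 7 at a 2-fold minimum, 6 at a 5 FPKM minimum, 7 without genes listed at 0 and 7 without shared locus entries, but 2 with a normal p from the test statistic. The 1 lower call was 0 at a q of 0.01, 0 at a 2-fold minimum, 0 with the normal p and 0 without shared entries. With the normal p the other homeobox genes had 0 higher calls instead of 4 and 0 lower instead of 2, the cofactors 0 higher instead of 1 and 0 lower instead of 4, and the PRC2 genes 0 lower instead of 3. At a q of 0.01 the cofactors had 0 higher calls and the PRC2 genes 1 lower call. The cause was not tested.

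The median log2 ratio of tested members, 0.82, was 1.06 with a pseudocount of 0.1, 0.64 with 1, 0.83 after centring, 0.83 less the neighbours and 0.33 over all 81; the tested members include 9 that entered only through their knockout level. Over tested members at 1 FPKM or more in Control cells, an alternative chosen after seeing the data, it was -0.024. Also chosen then, the marker sums turned, as knockout minus control, to 1.69 FPKM for neural genes without Tubb3, 8.54 FPKM for fibroblast genes without Fbln1 and -11.2 FPKM for trophectoderm genes without Krt8 and Krt18. Members at 2 FPKM or more were 17 in knockout and 13 in control cells, against 30 and 20 at 1 FPKM. The ratios of the 8 called members kept their sign in all 32 recomputations, but a pseudocount added to both groups cannot change a sign. Centring subtracted a median of only -0.0035, so only the subtraction of the neighbour median could have turned these signs. Of the ratios of the 25 tested members, that of Gbx2 was the only one to change sign, at -0.011 less its neighbours. Values near 1 FPKM rest on little signal, and their depth is unknown.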

Other observations

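Among the tested members, the deposited statistic and p did not always run in parallel. Pax5 had a statistic of 0.230 with a p of 0.225 in the authors' deposited table at a log2 ratio of 2.23, and Msx3 had a statistic of 1.27 with a p of 0.258. Pbx2 had a statistic of -1.59 with a p of 0.00625 in the authors' deposited table. Meis1 had a statistic of 2.35 with a p of 0.00155 and Pbx3 one of 2.35 with a p of 0.00025 in the authors' deposited table. With a normal p from that statistic, the adjusted values of Meis1 and Pbx3 were both 0.399. The spread between libraries behind these values is not in the table.

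Some linked genes of this group differed in sign. Of 14 runs of members with starts within 1000 kb of each other, the closest pairs included Dlx3 and Dlx4, Dlx5 and Dlx6, and Six2 and Six3, and in each of these 1 gene was higher and 1 lower in MTF2 KO cells in value. Dlx1 and Dlx2 were both lower, at 0.0695 and 0.0263 FPKM in MTF2 KO cells and 0.162 and 0.114 FPKM in Control cells. Nkx6-2 and Msx3, 465 kb apart on chromosome 7, were both higher, and Nkx6-2 was called.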
